A study of Mus musculus with 2 samples.

Results

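The EGF receptor family and its ligands were followed in mouse Langerhans cells as 10 genes, taken by symbol from a table of 55487 genes. They comprise the receptors Egfr, Erbb2 and Erbb3 and the ligands Areg, Ereg, Hbegf, Tgfa, Btc, Epgn and Egf, and each symbol matched 1 protein-coding gene. The study measured RNA by sequencing in cells sorted from mouse ears as positive for CD207 and MHC class II, and kept for 24 hours with imiquimod, which activates Toll-like receptor 7, and an agent labelled a-CD40L. Both samples carried the genotype HTR2A-/-, a loss of the serotonin 2A receptor, and formed a single group, so every value below describes stimulated knockout cells. Cells of other genotypes or without treatment were not analysed here, and the labels give no mouse, sex or age for either sample. The samples are called library 2, whose column carries the replicate number, and library 1.

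EGF receptors are tyrosine kinases of the cell surface that work in pairs, and their ligands are made as membrane-anchored precursors which proteases cut free. In skin the pathway is best known from keratinocytes, where it drives growth, migration and wound repair, and Langerhans cells sit among these cells in the epidermis. Amphiregulin, the product of Areg, is also made by several kinds of immune cell.

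Library 2 held 42264685 counts and library 1 69925160, and levels are given as CPM, that is, counts scaled to a common library total. Cd207, the marker of the sort, had 1052 CPM in library 2 and, at a similar level, 1125 CPM in library 1. The libraries stood apart in cell type genes: 18 keratinocyte markers summed to 19117 CPM in library 2, against 5426 CPM in library 1, with none at 0 in either. The sums were 11845 and 21865 CPM for 10 Langerhans cell markers, and 966 and 3416 CPM for 8 mature dendritic cell markers, with library 2 given first. Xist had 1384 CPM in library 2, against 3.90 CPM in library 1, and Y-linked Ddx3y had 0.0946 and 149 CPM, so they are not repeats from 1 mouse. Htr2a, the deleted gene, had 117 and 77 counts and lay within background in both, although counts over a whole gene do not check a partial deletion. Background was taken from 1135 protein-coding olfactory receptor genes, and a gene was called above it where its CPM per kilobase of exon passed their 95th percentile, which was 1.58 in library 2 and 0.761 in library 1. In bulk RNA, fewer cells of a type and less RNA per cell cannot be told apart.

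Of the 7 ligand genes, 4 lie side by side on chromosome 5 (GRCm38, 91027464 to 91402994), in the order Epgn, Ereg, Areg and Btc, and no other protein-coding gene lies in these 376 kb. The first of them and Areg are shown from 250 bases before to 50 bases after the RefSeq start site (GRCm38.p6, plus strand). They were the most abundant ligand genes per kb of exon and differed in opposite directions between the libraries. The window of Egfr, the receptor that differed most, is shown beside them. Capitals mark matches on either strand to the cyclic AMP response element TGACGTCA, to the GC box with the letters GGGCGG, to the TATA box with the letters TATAAA and to the CCAAT box. The AP-1 element, with the letters TGANTCA, was searched too.
Epgn, chr5:91027267-91027566: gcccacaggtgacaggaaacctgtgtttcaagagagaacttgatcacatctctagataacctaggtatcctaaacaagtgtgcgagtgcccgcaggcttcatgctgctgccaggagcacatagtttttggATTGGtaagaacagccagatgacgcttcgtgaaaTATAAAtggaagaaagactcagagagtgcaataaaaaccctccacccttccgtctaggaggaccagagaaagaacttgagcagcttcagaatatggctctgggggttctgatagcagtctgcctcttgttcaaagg
Areg, chr5:91139349-91139648: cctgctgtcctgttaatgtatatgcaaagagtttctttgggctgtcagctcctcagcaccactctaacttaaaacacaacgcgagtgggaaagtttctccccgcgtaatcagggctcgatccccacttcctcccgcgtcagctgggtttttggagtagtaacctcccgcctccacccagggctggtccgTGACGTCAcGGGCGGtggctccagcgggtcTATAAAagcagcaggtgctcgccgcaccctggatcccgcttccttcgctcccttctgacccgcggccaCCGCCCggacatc
Egfr, chr11:16751953-16752252: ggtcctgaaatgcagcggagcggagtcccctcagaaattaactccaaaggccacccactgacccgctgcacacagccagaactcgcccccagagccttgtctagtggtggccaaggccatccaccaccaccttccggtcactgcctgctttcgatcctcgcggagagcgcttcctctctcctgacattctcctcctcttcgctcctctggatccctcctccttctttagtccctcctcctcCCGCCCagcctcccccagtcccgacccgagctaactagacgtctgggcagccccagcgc
The Areg window held the cyclic AMP response element at position -61, the TATA box at position -31 and the GC box at position -52 on the plus strand and at position 38 on the minus strand, with positions counted from the start site. The Epgn window held the TATA box at position -86 and the CCAAT box on the minus strand at position -120. For Epgn the GENCODE start, 91027464, lies upstream of the RefSeq start site, so both matches are nearer to the GENCODE start. The Egfr window held the GC box on the minus strand at position -9, and none of the 3 windows held the AP-1 element. Of 32851 promoter windows of this length, 1.79% held the cyclic AMP response element, 13.6% the TATA box, 35.7% the GC box, 37.4% the CCAAT box and 7.81% the AP-1 element on either strand. A match describes letters and not a site in use, and RefSeq windows were matched for 7 of the 10 genes.

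Transcripts of all 3 receptors were above background in both libraries and more abundant in library 2. Egfr (chromosome 11, 16752203 to 16918158, plus strand, 30 exon blocks), the receptor for EGF, amphiregulin and transforming growth factor alpha, was counted 6898 times in library 2 and 2342 times in library 1. Its level was 163 CPM in library 2 (from 159 to 167 by its 95% Poisson interval), against 33.5 CPM in library 1 (32.2 to 34.9), with a mean of 98.4 ± 91.7 CPM (SD, n = 2). Erbb3 (chromosome 10, 128567523 to 128589652, minus strand), a neuregulin receptor with a weak kinase, had 3624 and 2246 counts, which gave library 2 a level of 85.7 CPM and library 1 one of 32.1 CPM (58.9 ± 37.9 CPM). Erbb2 (chromosome 11, 98412470 to 98437716, plus strand), a partner receptor with no known ligand of its own, had 2154 and 1069 counts, with levels of 51.0 CPM in library 2 and 15.3 CPM in library 1 (33.1 ± 25.2 CPM). The intervals of the libraries did not overlap for any receptor, but they cover counting error only and take each count as independent.

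Compared per kilobase of exon, the receptors were ordered differently in the libraries. In library 2 Egfr, at 14.4 CPM per kb, and Erbb3, at 14.3 CPM per kb, could not be separated beyond counting error, and Erbb2 was below them at 9.78 CPM per kb. In library 1 Erbb3 led at 5.34 CPM per kb, and Egfr (2.96) and Erbb2 (2.93) could not be separated. Of the summed receptor level per kb, Egfr made up 37.5% in library 2 and 26.3% in library 1, Erbb3 37.1% and 47.5%, and Erbb2 25.4% and 26.1%. Egfr counts were 1.90 times those of Erbb3 in library 2 (95% interval 1.83 to 1.98) and 1.04 times in library 1 (0.984 to 1.11), a ratio that no scaling of the libraries changes.

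Areg was the most abundant ligand gene per kilobase in both libraries, and the only ligand lower in library 2. Areg (chromosome 5, 91139599 to 91148432, plus strand, 6 exon blocks) had 2599 counts in library 2 and 4867 in library 1. Its level was 61.5 CPM (95% Poisson interval 59.2 to 63.9) in library 2, against 69.6 CPM (67.7 to 71.6) in library 1, or 65.5 ± 5.73 CPM (SD, n = 2). Per kb of exon it reached 50.6 CPM in library 2, against 57.3 CPM in library 1, above 97.7% and 97.9% of protein-coding genes. Its SD was the smallest, relative to the mean, of the 10 genes.

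Per kilobase of exon, Epgn and Hbegf followed Areg in both libraries. Epgn (chromosome 5, 91027464 to 91035215, plus strand), which encodes epigen, a low-affinity ligand of the EGF receptor, had 3237 counts in library 2 and 1331 in library 1. It stood at 42.4 CPM per kb in library 2 and 10.5 CPM per kb in library 1. Hbegf (chromosome 18, 36504927 to 36515805, minus strand), whose heparin-binding product acts in wound closure, had 3418 and 2040 counts, at 16.7 CPM per kb in library 2 and 6.04 CPM per kb in library 1. Areg exceeded Epgn 1.19 times per kb in library 2 (95% interval 1.13 to 1.26) and 5.44 times in library 1 (5.12 to 5.78). By counts, without length, Areg was lower than both in library 2, at 0.803 times Epgn and 0.760 times Hbegf. In library 1 it was at 3.66 and 2.39 times their counts.

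Ereg and Tgfa were scarcer and exchanged places. Ereg (chromosome 5, 91074622 to 91093646, plus strand), which encodes epiregulin, had 1334 counts in library 2 and 273 in library 1. This equals 7.65 CPM per kb in library 2 and 0.946 CPM per kb in library 1, where it stood 1.24 times above the background limit, with an interval of 0.837 to 1.06 CPM per kb. Tgfa (chromosome 6, 86195223 to 86275719, plus strand), an autocrine growth factor of keratinocytes, had 1179 and 530 counts, at 4.30 CPM per kb in library 2 and 1.17 CPM per kb in library 1. It shares 118 bases of exon with a gene of the opposite strand that had 127 counts in library 2 and 89 in library 1. Ereg was thus above Tgfa in library 2 and below it in library 1, in both cases with intervals that did not overlap.

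Egf and Btc were not distinguishable from background. Egf (chromosome 3, 129677565 to 129755316, minus strand), the founding member of the family and mainly a product of kidney and glands, had 435 counts in library 2 and 454 in library 1. It stood at 0.913 CPM per kb in library 2 and 0.576 CPM per kb in library 1, above 71.6% and 89.7% of the olfactory receptor genes. Its exons share 607 and 500 bases with 2 genes of the opposite strand, which had 97 and 80 counts in library 2 and 149 and 57 in library 1. Whether counting used strand is not given in the sources used here, and these reads cannot be divided with certainty. Btc (chromosome 5, 91357261 to 91402994, minus strand), which encodes betacellulin, had 83 counts in library 2, or 0.434 CPM per kb, and 0 counts in library 1. With 0 counts in library 1, a true value of up to 3 counts there, equal to 0.0429 CPM, is possible. Of the 10 genes, 8 were above background in both libraries, against 47.3% of all protein-coding genes. Taken singly, library 2 also placed 8 above background, against 50.4%, and library 1 placed 8, against 56.2%.

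**Figure D1:**
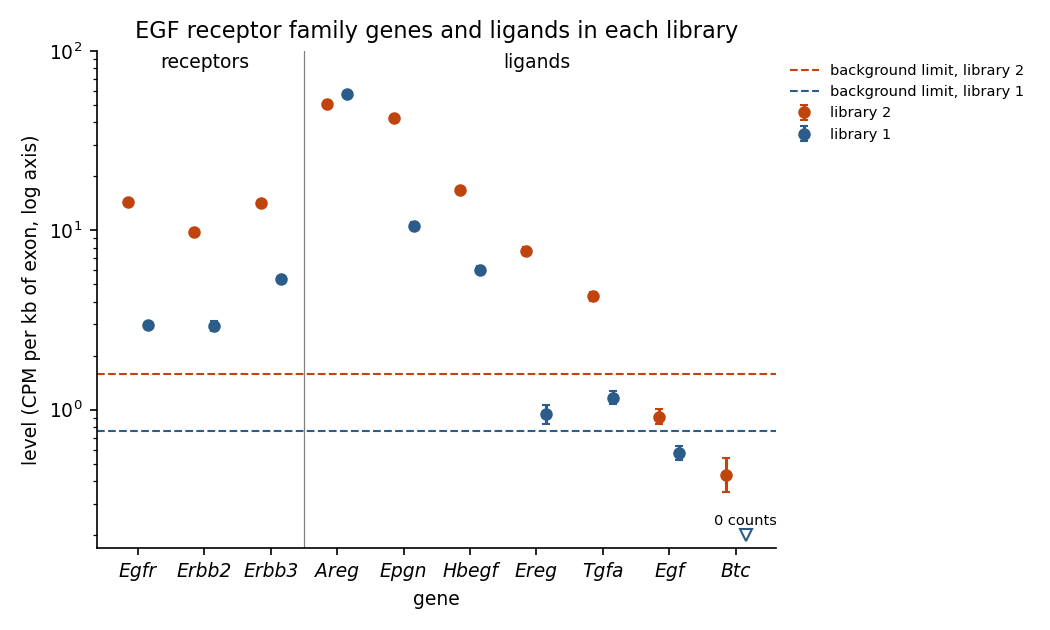
Level of each gene in CPM per kb of exon on a log axis, with library 2 in orange to the left of library 1 in blue. Bars are 95% Poisson intervals, dashed lines are the background limits of 1.58 in library 2 and 0.761 in library 1, and the triangle stands for 0 counts. Areg is the only gene whose library 2 point lies below its library 1 point.

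The make-up of the ligand transcripts differed between the libraries. Areg made up 41.1% of the summed ligand level per kb in library 2 and 74.8% in library 1. Epgn made up 34.5% in library 2 and 13.8% in library 1, Hbegf 13.6% and 7.88%, Ereg 6.22% and 1.24%, and Tgfa 3.49% and 1.53%. Egf made up 0.742% in library 2 and 0.752% in library 1, and Btc 0.353% and 0%. As a share of ligand counts, without length, Areg took 21.2% in library 2 (95% exact binomial interval 20.4 to 21.9) and 51.3% in library 1 (50.2 to 52.3). These shares do not depend on how the libraries are scaled to each other.

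**Figure D2:**
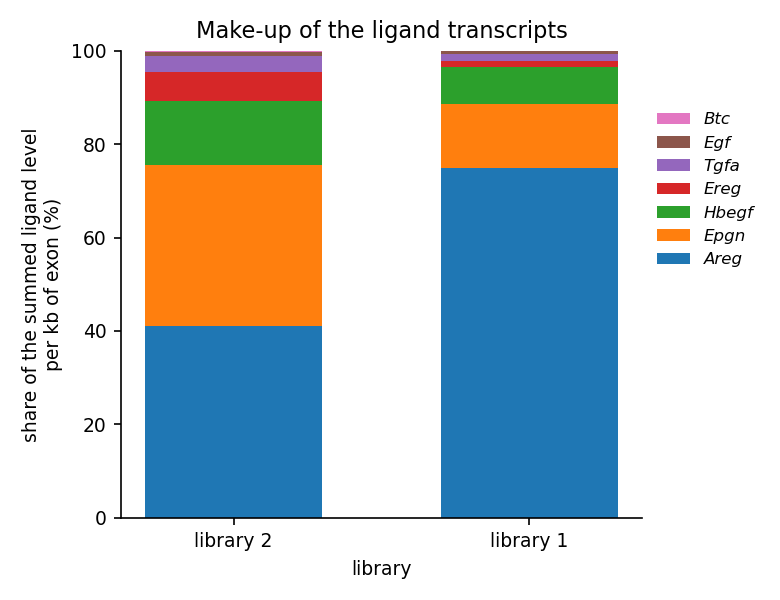
Share of the summed ligand level per kb of exon, in percent, taken by each of 7 ligand genes in library 2 (left bar) and library 1 (right bar). Areg takes 41.1% in library 2 and 74.8% in library 1, and Epgn 34.5% and 13.8%.

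The libraries were then set against each other after TMM scaling, which uses the bulk of genes and lowers each ratio of library 2 over library 1 by 0.501 on the log2 scale relative to total counts. With 1 library on each side there is no test of a condition, and these ratios describe how far replicates of the group differed. Of the 10 genes 6 were at least 2-fold higher in library 2, against 24.5% of 30373 genes with at least 1 CPM in a library, and 0 were at least 2-fold lower, against 12.6%. By total counts 8 were at least 2-fold higher, against 38.6%, and 0 lower, against 5.48%. One of the 6 is Btc, which passed the filter on low values through library 2 alone and lay within background. Among 10385 protein-coding genes above background in both libraries, 4.95% were at least 2-fold higher in library 2 and 20.7% were lower by that factor. The median log2 ratio was 1.31 over the 10 genes, also with Btc placed at its bound, and 0.15 over all tested genes. By total counts these medians were 1.81 and 0.65.

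Ereg differed most among genes above background, at 5.71 times higher in library 2 (95% interval for counting error 5.01 to 6.53), or 8.08 times by total counts. Egfr was 3.44 times higher in library 2 (3.29 to 3.61), Epgn 2.84 times (2.67 to 3.03), Tgfa 2.60 times (2.35 to 2.89) and Erbb2 2.36 times (2.19 to 2.54). Hbegf, at 1.96 times (1.85 to 2.07), and Erbb3, at 1.89 times (1.79 to 1.99), lay just under a factor of 2 with TMM and above it by total counts, at 2.77 and 2.67 times. Egf had a ratio of 1.12 with an interval that included 1 (0.980 to 1.28). Btc was at least 32.3-fold higher in library 2 against the limit of 3 counts in library 1, with its 83 counts taken as exact, and the 95% interval for counting error began at 25.7. Its level in library 2 lay within background, and background subtraction left it no signal. Areg was lower in library 2, at 0.624 times its library 1 level (0.595 to 0.655), or 0.883 times by total counts (0.842 to 0.927). With TMM scaling, 36.2% of protein-coding genes above background in both libraries had a lower ratio than Areg. The median log2 ratio of those genes was -0.43, so the ratio of Areg was not unusual among them.

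**Figure D3:**
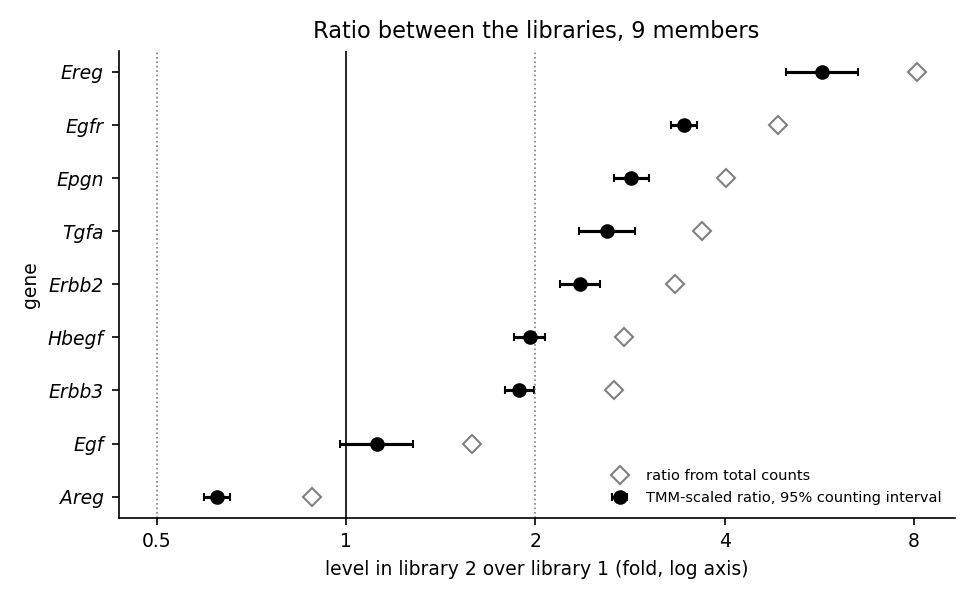
Ratio of the level in library 2 over that in library 1 on a log axis for 9 genes. Btc is left out because it has 0 counts in library 1. Black points are TMM-scaled ratios with 95% intervals for counting error, open diamonds are ratios from total counts, and dotted lines mark a factor of 2 either way. Areg alone lies below 1 on both scales.

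Keratinocyte genes differed between the libraries in the same direction as most of these genes. Of 18 keratinocyte markers 16 were at least 2-fold higher in library 2, with a median log2 ratio of 1.34, while 7 of 10 Langerhans cell markers and 7 of 8 mature dendritic cell markers were at least 2-fold lower, with medians of -1.33 and -1.87. By total counts the numbers past a factor of 2 were 16, 3 and 7. Among the keratinocyte markers that were higher, Lor and Flg were above background in library 2 alone. Over the keratinocyte markers above background in both libraries the median log2 ratio was 1.30. Set against Krt14, the keratin of basal keratinocytes, Tgfa, Erbb2 and Epgn gave nearly equal shares in the libraries. Tgfa counts were 0.580% of Krt14 counts in library 2 and 0.576% in library 1, with intervals that overlapped (0.548 to 0.615 and 0.528 to 0.628). Erbb2 was at 1.06% in library 2 and 1.16% in library 1, and Epgn at 1.59% and 1.45%. Egfr was at 3.40% and 2.55%, Erbb3 at 1.78% and 2.44%, and Hbegf at 1.68% and 2.22%, with library 2 given first. These shares depend on the marker. Krt14 had a TMM ratio of 2.58, while the keratinocyte markers above background in both libraries ran from 0.583 for Krt15 to 10.2 for Ivl. Tgfa, Erbb2 and Epgn would be higher in library 2 against Krt15 or Trp63 (1.41), and lower against Ivl. Per Krt5 count, library 2 had 1.09 times the library 1 value for Tgfa, 0.985 times for Erbb2 and 1.19 times for Epgn.

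Ereg and Areg departed from Krt14 in opposite directions. Ereg was at 0.657% of Krt14 counts in library 2 and 0.297% in library 1, while Areg was at 1.28% and 5.29%. Set against Cd207, Areg was at 5.84% in library 2 (95% interval 5.61 to 6.08) and 6.19% in library 1 (6.01 to 6.37). The library 2 share was 0.945 times that of library 1. The intervals overlapped slightly, which does not show that the shares were equal. The other 7 genes above background were 2.85 to 8.64 times higher per Cd207 count in library 2, with Erbb3 lowest and Ereg highest. These values too depend on the marker. Cd207 had a TMM ratio of 0.661, while the 10 Langerhans cell markers ran from 0.237 for Runx3 to 1.17 for Cdh1. Their median log2 ratio was -1.33, so Areg would be higher in library 2 when set against most of them. The part of keratinocyte RNA in these levels, and whether it came from sorted cells, was not tested.

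**Figure D4:**
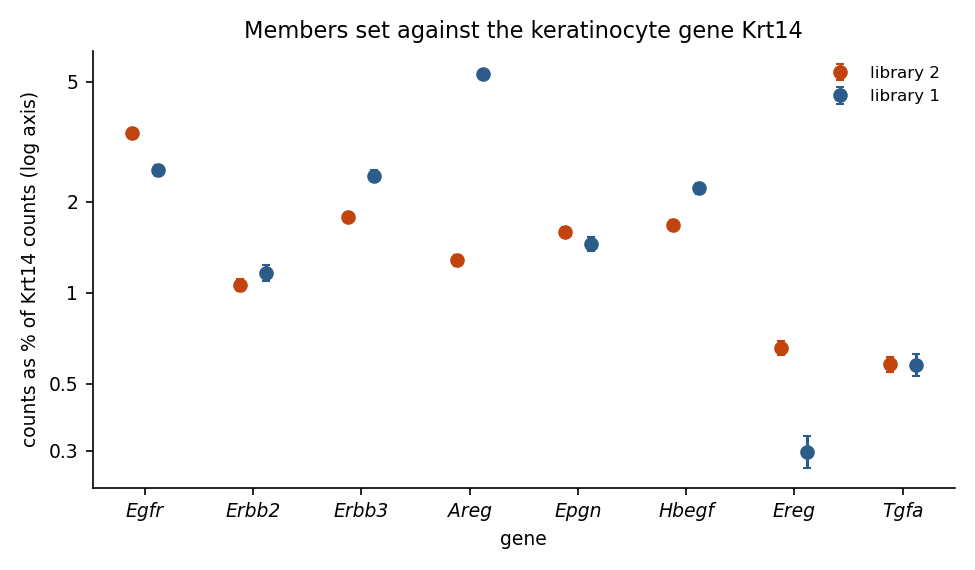
Counts of 8 genes as a percentage of Krt14 counts on a log axis, with library 2 in orange to the left of library 1 in blue and 95% intervals for counting error. The points of the libraries lie close to each other for Tgfa, for Erbb2 and for Epgn, Areg is at 1.28% in library 2 and 5.29% in library 1, and Ereg is at 0.657% and 0.297%.

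Other cells known to make amphiregulin include regulatory T cells, group 2 innate lymphoid cells and mast cells. Of 6 markers of the first 2 kinds, Gata3 and Rora were above background in both libraries, and Foxp3 and Il1rl1 were in neither. Icos, at 1.27 CPM per kb in library 2 and 3.20 CPM per kb in library 1, and Il2ra, at 1.26 and 3.89 CPM per kb, were above it in library 1 alone. These 6 summed to 353 CPM in library 2 and 125 CPM in library 1, of which Gata3, which keratinocytes also express, gave 226 and 27.9 CPM. Of 5 mast cell markers, Hdc and Kit were above background in both libraries, and the 5 summed to 41.9 CPM in library 2 and 62.9 CPM in library 1, with Mcpt4 at 0 counts in library 1. Of 6 monocyte and macrophage markers 6 were above background in both libraries, and they summed to 914 CPM in library 2 and 2026 CPM in library 1. Of 5 T cell markers 4 were, with sums of 114 and 187 CPM, and of 6 fibroblast markers 0 were above it in library 2 and 4 in library 1, with sums of 42.7 and 114 CPM. Their part in the level of Areg was not tested.

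Of the remaining receptor and the neuregulins, only Nrg1 was above background in both libraries. Nrg1, a ligand of the ERBB3 protein, was at 8.07 CPM per kb in library 2 and 2.99 CPM per kb in library 1, a TMM ratio of 1.91 (1.81 to 2.02). Erbb4, Nrg2, Nrg3 and Nrg4 lay within background in both.

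Genes that release the ligands were all above background. Rhbdf2, which encodes the ADAM17 partner iRhom2, had the highest mean of the 5 per kb, at 13.2 CPM per kb in library 2 and 15.1 CPM per kb in library 1. Adam10, the protease known to release EGF and betacellulin, had the smallest ratio at 0.302 (0.285 to 0.319), with 7.07 CPM per kb in library 2 and 16.6 CPM per kb in library 1. Rhbdf1, which encodes the related iRhom1, had the largest at 2.32 (2.14 to 2.52), with 7.69 CPM per kb in library 2 and 2.34 CPM per kb in library 1. Of these 5 genes 1 was at least 2-fold higher in library 2 and 1 was lower by that factor. The shares were 4.95% and 20.7% among protein-coding genes above background in both libraries.

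Of the shared signalling genes downstream of the receptors, 21 of 22 had a negative log2 ratio with TMM scaling and 17 of 22 by total counts. The protein-coding genes above background in both libraries had a negative median themselves, at -0.43 with TMM scaling (0.07 by total counts), and 20.7% of them were at least 2-fold lower in library 2. Of 22 adaptor, RAS-MAPK and PI3K genes all were above background, 0 were at least 2-fold higher in library 2 and 7 were lower by that factor, with a median log2 ratio of -0.80. By total counts that median was -0.30 and 1 gene was at least 2-fold lower. Grb2, the adaptor that binds activated receptors, was the highest per kb in both libraries at 25.5 CPM per kb in library 2 and 48.3 CPM per kb in library 1. Pik3r1, a regulatory subunit of PI3 kinase, had the smallest ratio at 0.255 (0.247 to 0.263), and Hras the largest at 1.06 with an interval that included 1 (0.993 to 1.14).

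Negative regulators and genes induced by the pathway differed in both directions. Of 13 negative regulators 12 were above background in both libraries, and Spry4 was above it in library 1 alone. At least 2-fold higher in library 2 was 1 of the 13, against 24.5% of all tested genes. At least 2-fold lower were 6, Spry4 among them, against 12.6%. Of protein-coding genes above background in both libraries, 20.7% were lower by that factor. The median log2 ratio of the 13 was -0.68. By total counts 2 were at least 2-fold higher and 2 lower, with a median of -0.18. Dusp5, a phosphatase of ERK, had the highest mean of the 2 libraries at 61.6 CPM per kb in library 2 and 117 CPM per kb in library 1. In library 2 Errfi1 was higher than Dusp5, at 105 CPM per kb, while in library 1 it stood at 55.3 CPM per kb. Spry1, a sprouty inhibitor of receptor signalling, had the largest ratio at 2.70 (2.46 to 2.98), and the phosphatase gene Dusp4 the smallest at 0.287 (0.266 to 0.310). Of 8 genes induced by the pathway 7 were above background in both libraries. At least 2-fold higher in library 2 were 3, against 24.5% of all tested genes, and 2 were lower by that factor, against 12.6%. Among those 3, Etv4 was above background in library 2 alone. The median log2 ratio was 0.34 over the 8 genes and 0.14 over the 7 above background in both. By total counts 4 were at least 2-fold higher and 2 lower, with a median of 0.84. Fosl1, an AP-1 subunit, had the largest ratio at 5.26 (4.998 to 5.54), with 191 CPM in library 2 against 25.7 CPM in library 1. Fos, another AP-1 subunit, was the highest at 303 CPM per kb in library 2 and 607 CPM per kb in library 1, and Etv5, an ETS factor, had the smallest ratio at 0.330 (0.298 to 0.365).

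**Figure D5:**
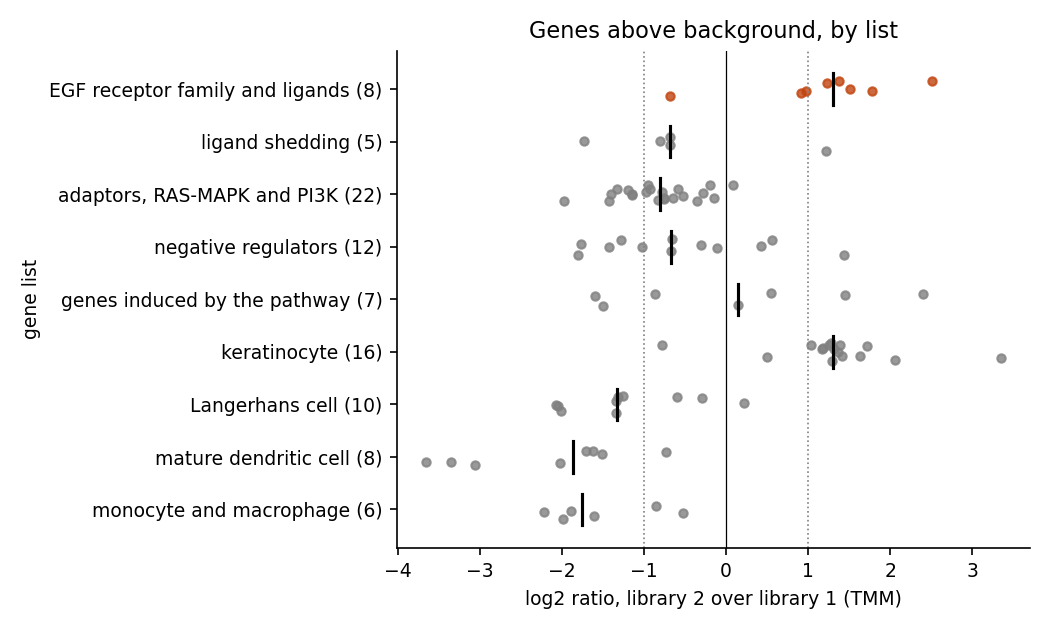
Log2 ratio of library 2 over library 1 with TMM scaling for genes above background in both libraries, by list, with the number of genes in brackets, a black bar at each median and dotted lines at a factor of 2 either way. The family's genes, in orange, span -0.68 (Areg) to 2.51 (Ereg), and the 22 adaptor, RAS-MAPK and PI3K genes span -1.97 to 0.09.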

How the data were processed

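RNA sequencing counts from 2 samples of 1 group were used. The authors deposited raw counts, 1 whole number per Ensembl gene and library, in 1 table, and 2 closing rows without an identifier (1 blank, 1 holding the column totals) were left out. The build GRCm38 and the tools HISAT2, StringTie, Trimmomatic and SAMtools stand in the submitters' processing notes. Versions, annotation and counting settings were not given in the sources used here. Per the labels' protocols, the RNA input was 10 to 70 ng. Symbols, positions and exon lengths (union of exons) were taken from GENCODE M21, which is on GRCm38 and gave 55227 rows a length, and promoters from RefSeq. CPM, CPM per kb and exact 95% intervals were computed from the counts. TMM factors came from edgeR 4.0.16 (R 4.3.3) on genes that reached 1 CPM in either library, and log2 ratios used a prior count of 1. No p-value is given, since 1 library stood on each side and the labels name no separate mice. DESeq2 1.42.0 size factors were an alternative.

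The members and lists were chosen with earlier results of these data known, the olfactory receptor background among them. All 10 members are named. Of each pathway list, the gene with the highest mean per kb and those with the largest and smallest ratio above background are named. Errfi1, and pathway genes that were not above background in both libraries, are named too.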

Additional observations from a re-analysis of the deposited data

How the results depend on the processing

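No paired analysis was possible because the samples form 1 group. The number of the 10 genes at least 2-fold higher in library 2 was 6 with TMM, with DESeq2 size factors and without a filter, 8 by total counts, and 5 where both libraries needed 10 counts. It was also 5 after background subtraction, an alternative chosen after seeing the data, which left Btc no signal and gave Egf a log2 ratio of -0.90 in place of 0.16. The number at least 2-fold lower was 0 under each of these settings. The number above background was 8, with 8 in either library alone (range 8 to 8), 6 at the 99th percentile and 9 without exon length. Ereg and Tgfa passed the 95th but not the 99th percentile in library 1. Areg had a negative log2 ratio under each setting, at -0.68 with TMM, -0.18 by total counts, -0.78 with DESeq2 size factors, -0.68 with a prior count of 0.5 and -0.69 after background subtraction. Btc and Ereg had the fewest counts of the 10 genes in library 1, at 0 and 273, although library 1 was the deeper library.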
